A study of Homo sapiens with 62 samples.

Results

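The genes described here are 10 components of noncanonical WNT signalling and of its extracellular control: the ligands WNT5A and WNT5B, the receptors ROR1, ROR2, RYK, FZD2 and FZD7, and the antagonist side DKK1, DKK3 and KREMEN1. They were chosen by name, and chosen from results of these same data: WNT5A had been seen to be higher in A2058 clones that lost 1q, and ROR1 lower in AGS clones that lost 1q. All 10 had a row in every count table, among 58735 genes in the tables of 4 cell lines and 48162 genes in the tables of the fifth. For those 2 comparisons the values below are therefore a description and carry no test. The other comparisons were not used to choose the genes and are tested.

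The 5 human cell lines of the study gave 62 messenger RNA libraries in 16 groups. The study removed 1 extra copy of a chromosome arm by ReDACT, a family of genome-engineering methods, and kept single-cell-derived clones that had lost it. RNA was extracted 24 hours after plating, and each table gives the raw counts per gene of 1 library. In the melanoma line A2058, 4 parental (WT) libraries were set against 4 libraries of 2 clones without the extra 1q, 6 libraries of 3 clones without the extra 7p and 4 libraries of 2 clones without the extra 8q. In the colorectal carcinoma line HCT116, 2 WT libraries were set against 4 libraries of 2 clones without the extra 8q. All of these A2058 and HCT116 clones were made by the version of the method labelled CO. In the gastric carcinoma line AGS, 1 WT library and 2 libraries of clones that carry an integrant labelled TK+ but keep the extra 1q were set against 5 libraries of 5 clones without it. Of these AGS clones 1, 4, 6 and 7 were made by the version labelled NS, and clone 11 by CO. In the ovarian cancer line A2780, 2 WT and 2 TK+ libraries were set against 6 libraries of 3 NS clones without the extra 1q. In the non-tumorigenic breast epithelial line MCF10A, 2 WT libraries were set against 8 libraries of 4 clones without the extra 1q, and 2 WT libraries that express hRASV12 against 8 libraries of 4 clones with hRASV12 and without the extra 1q. In each MCF10A background clones 1 to 3 were labelled TR and clone 4 was labelled CO. Each loss group thus rests on 2 to 5 clones, and 2 libraries of 1 clone share that clone's history. The MCF10A labels call replicates biological, and for the other lines nothing says that they came from separate cultures, so a p-value measures the spread between these libraries, which may be technical.

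WNT proteins are secreted lipid-modified ligands. In the canonical branch they bind Frizzled and LRP co-receptors and stabilise beta-catenin, which switches on genes through TCF and LEF factors. WNT5A and WNT5B mostly act without beta-catenin: through Frizzled, ROR and RYK receptors they change the cytoskeleton, polarity and migration of cells. In melanoma WNT5A is known for its link to invasive, poorly pigmented cell states, and ROR1 and ROR2 are studied as tumour antigens that are scarce in most adult tissues.

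The ligand WNT5A (ENSG00000114251) lies at chr3:55465715-55490539 on the minus strand (GRCh38), in arm 3p, and the closely related ligand WNT5B (ENSG00000111186) lies at chr12:1529891-1647243, in 12p. The receptor tyrosine kinase-like proteins ROR1 (ENSG00000185483, chr1:63774022-64181498, arm 1p) and ROR2 (ENSG00000169071, chr9:91563091-91950162, arm 9q) bind WNT5A with a Frizzled-like domain. RYK (ENSG00000163785, chr3:134065303-134250744, arm 3q) is a kinase-dead WNT receptor. FZD2 (ENSG00000180340, chr17:44557459-44559570, arm 17q) and FZD7 (ENSG00000155760, chr2:202034587-202038445, arm 2q) are seven-pass Frizzled receptors. DKK1 (ENSG00000107984, chr10:52314296-52318042, arm 10q) is a secreted antagonist that binds the co-receptors LRP5 and LRP6, and KREMEN1 (ENSG00000183762, chr22:29073078-29168333, arm 22q) is a membrane receptor for it. DKK3 (ENSG00000050165, chr11:11963106-12009769, arm 11p) is a divergent relative of DKK1 that does not share its LRP binding. None of the 10 genes lies on 1q, 7p or 8q, so none lost a copy with the targeted arm.

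The 250 bases before the RefSeq start sites (GRCh38.p14) are shown for WNT5A and ROR1, because the genes were chosen for the differences of these 2, for ROR2, because it was found in the lines with least ROR1, and for DKK1, because it was abundant in every line. Each is printed 5′ to 3′ on the strand of its gene. In WNT5A (chr3:55481399-55481648, minus strand), ROR1 (chr1:63773767-63774016, plus strand) and ROR2 (chr9:91950229-91950478, minus strand) capitals mark CG dinucleotides. In DKK1 (chr10:52314031-52314280, plus strand) capitals mark matches to the TCF and LEF core CTTTGA on either strand and to the TATA box TATAAA.
WNT5A: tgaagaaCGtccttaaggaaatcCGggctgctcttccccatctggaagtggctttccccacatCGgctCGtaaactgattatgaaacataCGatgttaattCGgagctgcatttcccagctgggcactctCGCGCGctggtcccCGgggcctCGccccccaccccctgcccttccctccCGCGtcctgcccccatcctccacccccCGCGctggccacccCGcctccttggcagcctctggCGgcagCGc
ROR1: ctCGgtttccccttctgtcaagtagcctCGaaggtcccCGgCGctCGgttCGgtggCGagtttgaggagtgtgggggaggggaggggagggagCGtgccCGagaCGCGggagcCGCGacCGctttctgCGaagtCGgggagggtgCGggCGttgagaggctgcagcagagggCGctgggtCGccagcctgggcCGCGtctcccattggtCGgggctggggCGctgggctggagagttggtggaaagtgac
ROR2: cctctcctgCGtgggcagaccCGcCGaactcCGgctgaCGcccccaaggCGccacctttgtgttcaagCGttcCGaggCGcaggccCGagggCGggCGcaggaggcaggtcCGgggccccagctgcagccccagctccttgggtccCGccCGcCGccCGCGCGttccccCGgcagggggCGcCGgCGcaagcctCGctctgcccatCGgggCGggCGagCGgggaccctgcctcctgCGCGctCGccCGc
DKK1: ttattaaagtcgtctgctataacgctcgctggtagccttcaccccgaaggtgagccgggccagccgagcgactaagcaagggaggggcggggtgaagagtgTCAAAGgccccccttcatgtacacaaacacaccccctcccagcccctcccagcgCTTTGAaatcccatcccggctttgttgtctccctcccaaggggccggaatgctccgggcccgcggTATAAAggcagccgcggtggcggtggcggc
The windows of WNT5A, ROR1, ROR2 and DKK1 held 18, 24, 32 and 18 CG dinucleotides, against a median of 11 over 35116 windows of the same length. The RefSeq table holds a second WNT5A window, at chr3:55487307-55487556, which had 14 CG dinucleotides and is not shown because it lies in the gene's own exons. DKK1 was the only 1 of the 6 members found in the RefSeq table with CTTTGA in its window, at 95 bases before the start on the gene's strand and at 149 bases on the other strand. CTTTGA was present in 11.2% of all windows and TATAAA, found in DKK1 at 30 bases before the start, in 10.7%. TATAAA was also present in 1 of the windows of WNT5B, which are not shown because they overlap its own exons. No member window held TGANTCA, the AP-1 site, or TGACGTCA, the cAMP response element, which 6.57% and 1.65% of all windows held on either strand. A match is a description of letters and not of a bound site. The DKK1 window lies inside exons of the antisense gene PRKG1-AS1 in GENCODE 29.

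Levels are given as CPM, read counts relative to library size, scaled within each line by the trimmed mean of M values (TMM), and levels of different genes are compared per kilobase of exon. Levels in different lines were scaled separately, and A2780 was counted with another gene annotation, so they are set side by side with no test. DKK1 had the highest level of the 10 genes in every group but A2780 WT, with WT means from a mean of 38.3 CPM per kb in A2780 WT to 310 CPM per kb in HCT116 WT. FZD2 was highest in A2780 WT, at 72.8 CPM per kb, and its WT means lay between 8.55 and 15 CPM per kb in the other lines. The WT means of RYK were 8.38 to 14.6 CPM per kb in 4 lines and 2.16 CPM per kb in HCT116. Those of KREMEN1 ran from 2.6 CPM per kb in A2780 to 5.66 CPM per kb in AGS.

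The 2 ROR receptors were found in different lines. ROR1 stood at 32.9 ± 2.85 CPM (SD, n = 4) in A2058 WT, 32 CPM in the 1 AGS WT library and 13 ± 2.62 CPM (n = 2) in MCF10A WT, and only at 1.81 ± 0.188 CPM (n = 2) in HCT116 WT and 0.183 ± 0.189 CPM (n = 2) in A2780 WT. ROR2 was instead at 40.3 ± 5.64 CPM (n = 2) in HCT116 WT and 1.89 ± 0.116 CPM (n = 2) in A2780 WT. It had 0 counts in every WT library of A2058, AGS and MCF10A, which allows at most 0.102 to 0.154 CPM at 3 counts. The A2058 and AGS ranges of ROR1 adjoin, with 28.7 to 35 CPM and 32 CPM, so these 2 lines did not differ beyond the spread of A2058.

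WNT5A was scarce in every WT group. It was at 4.35 ± 1.43 CPM (n = 2) in MCF10A, 3.51 ± 0.0851 CPM (n = 2) in A2780 and 0.971 ± 0.54 CPM (n = 4) in A2058, and MCF10A and A2780 overlapped. No WNT5A count was found in the AGS WT library or in any of the 6 HCT116 libraries, where 3 counts would be 0.0968 to 0.154 CPM. WNT5B was highest in MCF10A WT at 12 ± 0.718 CPM and in AGS WT at 10.1 CPM. DKK3 was at 20.2 ± 7.73 CPM in A2058 WT and 12.7 ± 1.15 CPM in A2780 WT, 0.51 ± 0.101 CPM in MCF10A WT, 0.0525 CPM (1 count) in AGS WT, and at 0 in both HCT116 WT libraries.

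**Figure D1:**
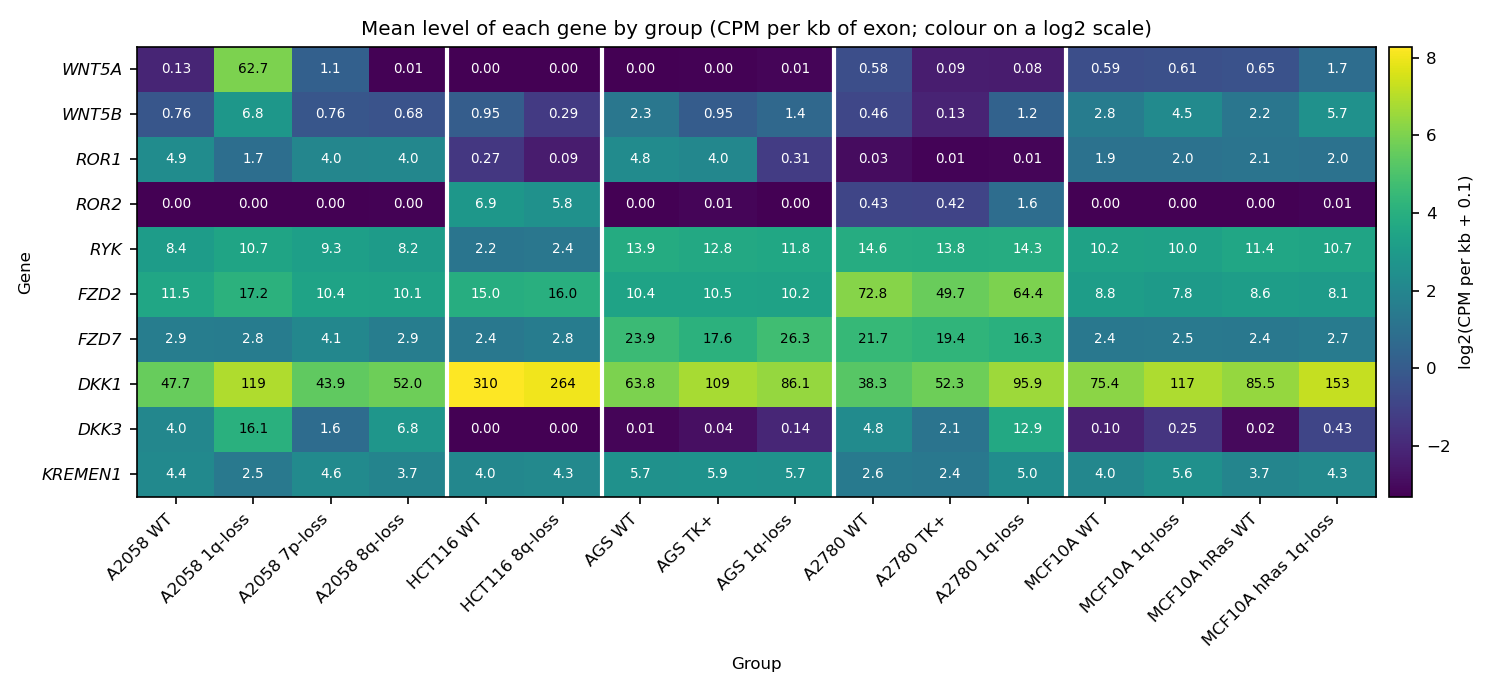
Mean level of each of the 10 genes (rows) in each of the 16 groups (columns), printed as CPM per kilobase of exon and coloured on a log2 scale; white lines separate the 5 cell lines. DKK1 is the brightest row in every group but A2780 WT, WNT5A stands out only in A2058 1q-loss at 62.7 CPM per kb, and ROR1 and ROR2 occupy different lines.

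Total counts per library lay between 15042068 and 30984036. The median change of genes on the targeted arm was −0.27 to −0.63 on the log2 scale in every loss clone, against −0.14 to 0.14 in the control libraries, so every loss clone matched its label on this measure. Melanocyte markers were present in A2058 WT (6 of 6 at a mean of at least 1 CPM) and basal breast markers in MCF10A WT (5 of 5). Only 2 of 5 gastric markers reached 1 CPM in AGS WT, 1 of 5 intestinal markers in HCT116 WT and 0 of 5 ovarian carcinoma markers in A2780 WT. Leukocyte markers summed to at most 0.828 CPM in any library.

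In A2058 clones without the extra 1q, WNT5A went from near absence to the second highest level of the 10 genes per kilobase, 62.7 CPM per kb against 119 for DKK1. The 4 WT libraries had 0.457, 0.677, 1.06 and 1.69 CPM. Both libraries of clone 1 had 408 and 439 CPM, and both of clone 2 had 505 and 503 CPM. The groups did not overlap, and the fitted log2 difference was 8.87 ± 0.24 (SE), a 468-fold higher level. WNT5A-AS1, an antisense gene that overlaps WNT5A, had 0 to 3 counts in WT libraries and 253 to 417 in the 1q-loss libraries. Whether counting used the strand is not given in the sources used here, so reads of the 2 genes cannot be told apart.

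WNT5B moved in the same direction on a smaller scale, with 2.81 to 4.39 CPM in WT and 25.1, 30.7, 31.4 and 30.9 CPM in the 1q-loss libraries, a log2 difference of 3.18 ± 0.16. Its overlapping neighbour FBXL14 had a mean of 31.6 CPM in WT and 40.3 CPM in 1q-loss. ROR1 was lower, with 28.7 to 35 CPM in WT, 16.8 and 13.4 CPM in clone 1, and 9.46 and 6.57 CPM in clone 2. The groups did not overlap, and neither did the libraries of the 2 clones. The fitted log2 difference of ROR1 was −1.52 ± 0.24. ROR2 had 0 counts in 3 of the 4 1q-loss libraries and 1 count in the other, so the other ROR receptor stayed near 0.

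The antagonist side was split. DKK3 had 14.5, 31.6, 16.6 and 18.1 CPM in WT, 120 and 106 CPM in 1q-loss clone 1, and 52.5 and 46.9 CPM in clone 2, a log2 difference of 2.01 ± 0.34. DKK1 had 85.8 to 138 CPM in WT and 231 to 299 CPM in 1q-loss, a difference of 1.32 ± 0.15. KREMEN1, the DKK1 receptor, was lower, with 29.8 to 39.4 CPM in WT and 18.6 to 21.6 CPM in 1q-loss, a difference of −0.82 ± 0.10. None of these 3 genes overlapped between the groups. Among the other receptors, FZD2 was higher by 0.58 ± 0.14 and RYK by 0.35 ± 0.10, while FZD7 overlapped between the groups, with 9.43 to 12.3 CPM in WT and 7.82 to 13.5 CPM in 1q-loss.

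Of the 9 members tested in this comparison, 8 passed the threshold used throughout, a Benjamini-Hochberg adjusted p under 0.05 in edgeR's quasi-likelihood test. Of all 15387 genes tested 49.6% did, 25.3% as higher and 24.3% as lower, and 6 of the members were higher and 2 lower. The genes were chosen with this comparison known, and nothing is read from the count. The 2 clones also differ from WT in lineage markers: the 6 melanocyte markers summed to 1757 to 2754 CPM in WT and 46.5 to 144 CPM in 1q-loss, with the pigment cell regulators SOX10 and MITF at means of 590 and 171 CPM in WT and 54 and 17.2 CPM in 1q-loss. The 5 fibroblast markers summed to 36.7 to 46.1 CPM in WT and 147 to 273 CPM in 1q-loss, most of it COL1A1, with means of 17.7 and 171 CPM. PDGFRB had means of 0.666 and 6.2 CPM and LUM of 21.4 and 27.2 CPM, while DCN (1.51 and 0.656 CPM) and COL1A2 (0.291 and 0.25 CPM) were not higher. The 4 epithelial markers summed to 80.3 to 107 CPM in WT and 167 to 212 CPM in 1q-loss, and the 3 endothelial markers to 0.659 to 1.06 CPM and 10.4 to 19.4 CPM. KRT8 (means of 8.89 and 25.1 CPM) and KRT18 (82.5 and 164 CPM) were higher, while EPCAM (0.11 and 0.0119 CPM) and CDH1 (0.275 and 0.06 CPM) were lower. PECAM1 (0.254 and 11.2 CPM) and CDH5 (0.257 and 2.62 CPM) were higher, and VWF (0.333 and 0.101 CPM) was lower. In bulk RNA, fewer cells of a type and less RNA per cell cannot be told apart, and the part of these markers in the differences was not tested.

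Other genes of the pathway were taken from lists that were set down by function, with earlier results of these data known. In the A2058 1q comparison 4 of the 6 other WNT ligands tested outside 1q were called higher and 0 lower (median log2 difference 1.80, against −0.001 over all genes), where 25.3% of all genes were called higher and 24.3% lower. WNT7B was at 0.469 ± 0.26 CPM in WT and 17.3 ± 5.5 CPM in 1q-loss, WNT10A at 0.165 ± 0.158 and 2.48 ± 1.79 CPM, and WNT6 at 3.96 ± 0.643 and 19.9 ± 6.85 CPM (n = 4 each). WNT9A, a ligand gene on the lost arm 1q itself, was at 0.144 ± 0.09 CPM in WT and 3.33 ± 1.59 CPM in 1q-loss. Of 5 other secreted antagonists tested, 5 were called lower (median −2.49), among them DKK2, a DKK1 relative, at 5.37 ± 1.85 and 0.357 ± 0.341 CPM. Of 10 other receptors 2 were called higher and 6 lower (median −0.48): FZD1 was at 37.9 ± 0.262 and 106 ± 30.2 CPM, and the co-receptor LRP5 at 94.3 ± 5.38 and 46 ± 6.98 CPM. Of 15 planar cell polarity and Dishevelled genes outside 1q 6 were higher and 4 lower (median 0.12). Of 6 beta-catenin target genes 2 were higher and 2 lower (median −0.042), with LEF1 at 123 ± 18.3 and 34.7 ± 14.6 CPM. Of these genes WNT10A and WNT9A passed the filter on low counts only through the 1q-loss libraries, and the antagonist FRZB only through WT, so their direction was set by the filter. These values come from the comparison that chose the members and are a description, and the counts and medians of the lists support nothing.

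**Figure D2:**
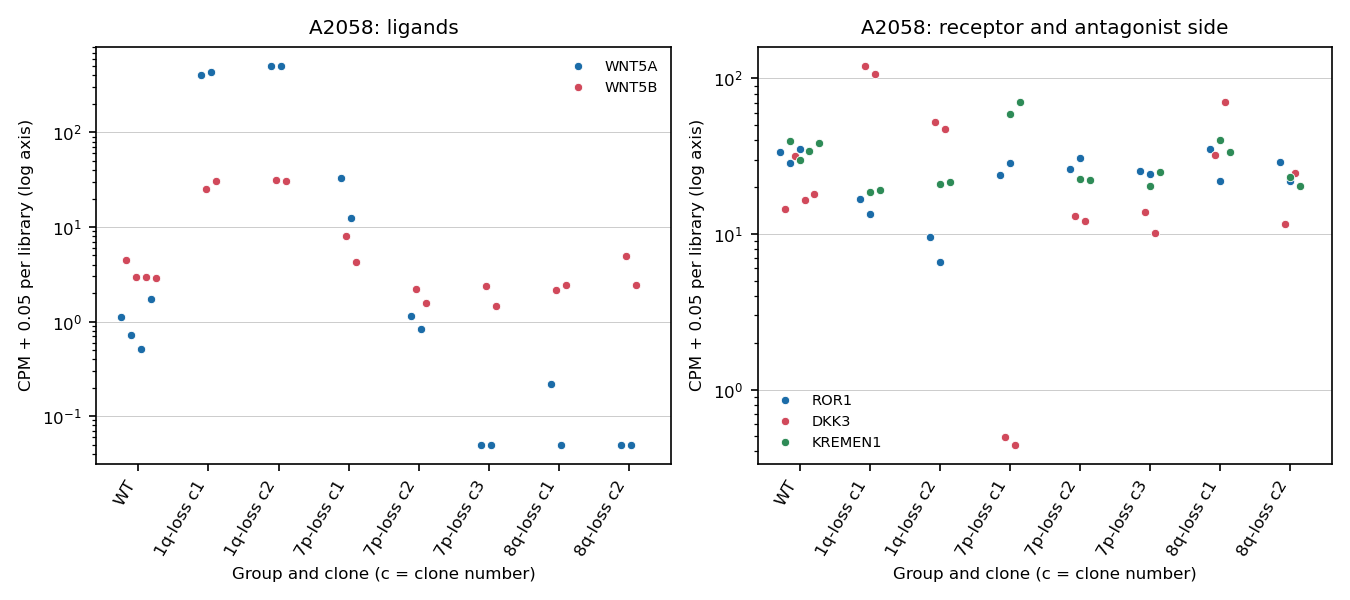
CPM of 5 genes in each A2058 library on a log axis, after adding 0.05 so that libraries at 0 can be drawn; points are single libraries, grouped by WT or by clone. WNT5A lies at 408 to 505 CPM in both 1q-loss clones and at 33 and 12.5 CPM in 7p-loss clone 1, while DKK3 falls to 0.445 and 0.393 CPM in that clone.

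The 7p-loss and 8q-loss clones of A2058 share the same 4 WT libraries with the 1q-loss clones, so the 3 comparisons are not independent of each other. After 7p loss no member was called of 9 tested, with edgeR and with DESeq2, which called 0.908% and 3.57% of all genes. An unadjusted p under 0.05 was found for 1 member (ROR1) and for 13% of all genes. The group hid large differences between its 3 clones. WNT5A was at 33 and 12.5 CPM in clone 1, at 1.1 and 0.778 CPM in clone 2, inside the WT range, and at 0 counts in both libraries of clone 3. The fitted log2 difference was 3.01 ± 1.58 (adjusted p = 0.452).

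In 7p-loss clone 1 other members left the WT range too. DKK3 had 0.445 and 0.393 CPM (9 and 11 counts). In clones 2 and 3 it had 10.2 to 13.8 CPM, so that all 6 libraries lay below the WT range of 14.5 to 31.6 CPM, with a log2 difference of −1.27 ± 0.80 (adjusted p = 0.529). KREMEN1 had 59.3 and 70.6 CPM in clone 1, above every WT library, and 20.3 to 24.9 CPM in clones 2 and 3, below every WT library. FZD7 had 31.3 and 20.6 CPM in clone 1 and 6.52 to 15.1 CPM in the others. Without clone 1 the fitted difference of KREMEN1 turned from 0.048 to −0.65 (adjusted p = 0.00571), and it became the 1 member called. Melanocyte markers summed to 1744 and 2988 CPM in clone 1 and to 999 to 1544 CPM in clones 2 and 3. Epithelial markers summed to 42.1 and 42.4 CPM in clone 1, against 80.3 to 107 CPM in WT and 70.4 to 124 CPM in clones 2 and 3. Fibroblast markers summed to 8.31 and 8.07 CPM in clone 3, against 36.7 to 46.1 CPM in WT and 19.7 to 38.4 CPM in clones 1 and 2. The part of these markers in the difference between clones was not tested.

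After 8q loss 1 member of 9 tested was called, WNT5A as lower, against 2.03% of all genes, 1.49% as lower. WNT5A had 4 counts in 1 library of clone 1 and 0 in the other 3 8q-loss libraries, against 9 to 39 counts in WT. WNT5A passed the filter on low counts only through its WT libraries, which are also those of the 1q comparison that chose it, so the call is a description and supports nothing. The fitted log2 difference of −4.29 ran from −7.42 to −3.43 over the alternatives and is not read as a size. The call was made in 6 of the 13 alternatives (of 17) that tested the gene. Leaving out any 1 library other than the first of 8q-loss clone 1 ended the call and left 0 members called. The libraries of both 8q-loss clones overlapped WT in ROR1, RYK, DKK1 and FZD7, whose log2 differences ran from −0.29 to 0.12. The 5 fibroblast markers summed to 36.7 to 46.1 CPM in WT and 65.7 to 82.5 CPM in 8q-loss, through LUM, with means of 21.4 and 60.2 CPM. The pigment enzyme gene TYR had means of 122 CPM in WT and 4.41 CPM in 8q-loss, and the melanocyte marker MLANA of 20.1 and 2.23 CPM. The melanocyte sum overlapped, and PMEL, its largest part, had means of 1329 and 1459 CPM. The part of these markers in the 8q values was not tested.

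Other members differed between the 8q-loss clones. FZD2 was at 14.7 and 12 CPM in clone 1, below the WT range of 18.7 to 28.8 CPM, with a log2 difference of −0.87 without clone 2. In clone 2 it was at 38.2 and 20.5 CPM. DKK3 was at 32 and 70.2 CPM in clone 1 and at 11.6 and 24.6 CPM in clone 2. KREMEN1 was at 40.4 and 33.5 CPM in clone 1 and at 23 and 20.3 CPM in clone 2, below every WT library. Its log2 difference was −0.28 (adjusted p = 0.622) over both clones and −0.72 without clone 1. A fit without 1 of the 2 clones rests on 2 libraries of 1 clone, so no p is given for it. Across the 7 A2058 loss clones of all 3 arms, KREMEN1 was below every WT library in 5 clones and above in 1, and ROR1 was below in 4 and above in 0. WNT5A and DKK3 were below in 3 and above in 3, WNT5B below in 3 and above in 2, and FZD2 and DKK1 below in 1 and above in 2. RYK was above in 3, FZD7 above in 1 and ROR2 in neither. The 1q-loss clones belong to the comparison that chose the genes, and the share over all genes was not counted. These counts are a description.

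Of the pathway lists, none of the genes tested outside the targeted arm was called after 7p or 8q loss. SCRIB, a polarity scaffold gene on 8q, was at 371 ± 16 CPM in WT and 247 ± 19.3 CPM in 8q-loss (log2 −0.59 ± 0.076, adjusted p = 0.00473).

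In AGS the clones without the extra 1q had little ROR1. The 3 controls had 32 CPM (WT), 28.9 CPM (TK+ clone 1) and 24.7 CPM (TK+ clone 2). The 5 loss clones had 2.66 CPM (clone 1), 2.17 CPM (clone 4), 1.36 CPM (clone 6), 1.05 CPM (clone 7) and 3.26 CPM (clone 11). All 5 clones were below every control, including clone 11, made by the version labelled CO. The fitted log2 difference was −3.76 ± 0.31, a 13.5-fold lower level, and it lay between −3.96 and −3.59 in every alternative, each of the 8 libraries left out in turn among them. This difference was used to choose the genes, so its size and its steadiness are a description and no support. ROR1 lies on 1p, where the median change of all tested genes was −0.025 to 0.004 in the 5 clones. Marker levels differed between the same groups. The 4 epithelial markers summed to 3788 to 5198 CPM in the controls and 5874 to 7874 CPM in the loss clones. EPCAM did not follow this sum, with means of 722 CPM in WT, 787 CPM in TK+ and 717 CPM in the loss clones. The gastric marker TFF1 had a mean of 19.3 CPM in WT, 23.3 CPM in TK+ and 1.81 CPM in the loss clones. The other gastric markers did not follow TFF1: GATA6 had means of 75.2, 95.9 and 82.5 CPM and MUC5AC of 0.158, 0.151 and 0.694 CPM, and TFF2 and CLDN18 were at or under 0.158 CPM. The part of these markers in the difference was not tested.

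WNT5B was either present or nearly absent in AGS, on both sides of the comparison. It had 10.1 CPM in WT, 8.13 CPM in TK+ clone 1, 11.6 CPM in loss clone 1, 9.53 CPM in clone 4 and 8.71 CPM in clone 11. In TK+ clone 2 it had 0.0592 CPM (1 count), in loss clone 6 0.355 CPM and in loss clone 7 0.198 CPM. The fitted difference was 0.001 ± 1.23, and 1 clone that kept 1q was among the low ones. FBXL14, which overlaps WNT5B, had 522 counts in WT, 327 and 463 in TK+ and 225 to 282 in the loss clones, with means of 27.4, 24.3 and 15.7 CPM, and so did not follow the split of WNT5B.

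Clones 6 and 7 resembled each other in more members than WNT5B. FZD2 was at 13.5 and 13.1 CPM in clones 6 and 7, 32.6 and 29.9 CPM in clones 1 and 4, and 21.4 to 22.9 CPM in the controls. FZD7 was at 138 and 147 CPM in clones 1 and 4 and at 65.8 to 92.1 CPM in the other 6 libraries. DKK1 was at 301 and 254 CPM in clones 6 and 7 and at 90.8 to 182 CPM in clones 1, 4 and 11, while the controls spanned 141 to 298 CPM. Over all genes the counts of clones 6 and 7 differed least of the 10 pairs of loss clones, with a chi-square of 7.06 per degree of freedom, more than sampling noise alone would give. Clones 1 and 4 were the next closest pair, at 19.4. In the other lines 31 pairs of libraries of the same clone or parental group gave 3.63 to 82.6, so clones 6 and 7 differed no more than most such pairs. Whether the 5 loss clones arose independently was not tested.

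DKK3 was low in every AGS library but higher in all 5 loss clones, at 0.363 to 0.946 CPM (6 to 16 counts), than in the controls, at 0.0525, 0.323 and 0.0592 CPM, and it passed the filter on low counts only through the loss clones. Clones 1 and 4, with the lowest DKK3 of the 5, had a median shift of 0.40 and 0.45 over the tested genes of 11p, where DKK3 lies. In clones 6, 7 and 11, with the highest DKK3, that shift was −0.014 to −0.010. Of 8 members tested, 1 was called, ROR1 as lower, against 7.55% of all genes and 4.17% as lower. This comparison was used to choose ROR1, and nothing is read from the count. RYK and KREMEN1 overlapped between the groups, at 83.8 to 114 CPM and 37.2 to 50.7 CPM over the 8 libraries.

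Of the pathway lists in AGS, PTK7, a pseudokinase co-receptor of the noncanonical branch, was at 383 ± 32.4 CPM (n = 3) in controls and 591 ± 108 CPM (n = 5) in loss clones. PRICKLE2, a planar polarity gene, was at 0.429 ± 0.0902 and 3 ± 1.49 CPM, KREMEN2, the second DKK1 receptor gene, at 6.07 ± 1.19 and 15.1 ± 4.64 CPM, and LGR5, a beta-catenin target, at 152 ± 29.9 and 44.3 ± 19.6 CPM. These were the called genes: 1 of 7 other receptors, 1 of 13 polarity genes and 1 of 3 antagonists as higher, and 1 of 9 beta-catenin targets as lower, with 0 of 6 other ligands outside 1q, where 7.55% of all genes were called. PRICKLE2 passed the filter on low counts only through the loss clones. The list medians were −0.19, 0.016, 0.35, −0.33 and 0.54, against 0.006 over all genes.

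**Figure D3:**
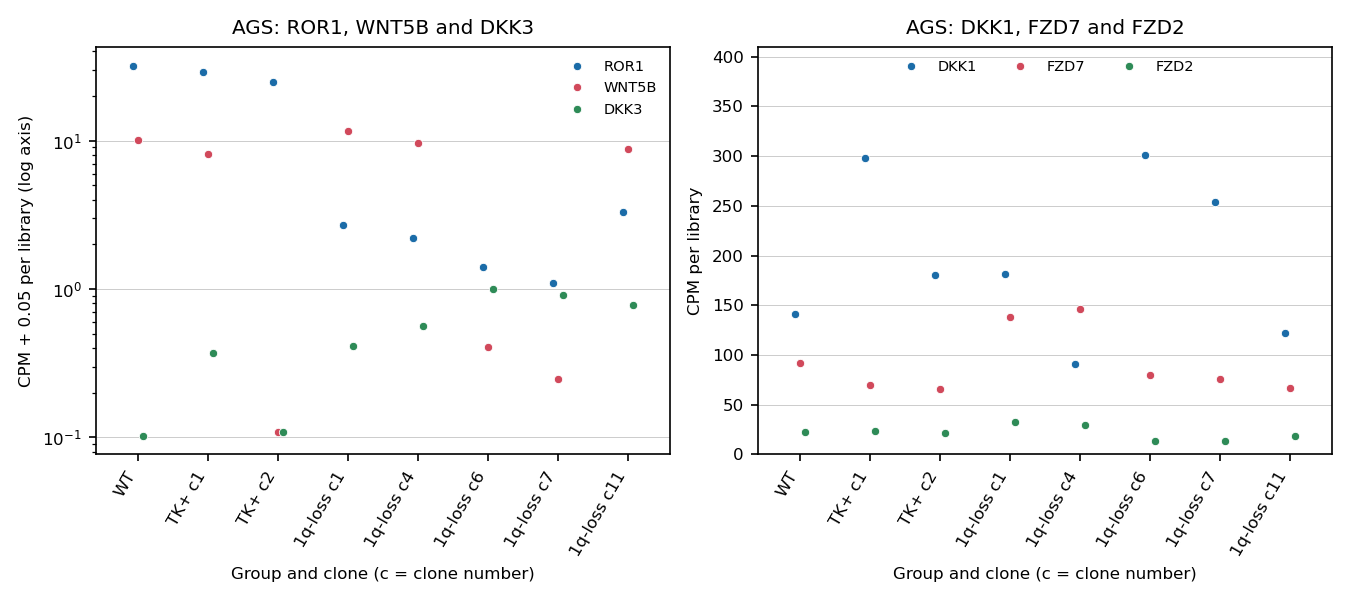
CPM per library in AGS, where each clone is 1 library; the left panel has a log axis with 0.05 added, the right panel a linear axis from 0. ROR1 is at 24.7 to 32 CPM in the 3 libraries that keep 1q and at 1.05 to 3.26 CPM in the 5 that lost it, while WNT5B is near 0 in TK+ clone 2 and in loss clones 6 and 7.

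In A2780 the loss of 1q went with more KREMEN1, ROR2, DKK3 and DKK1 and with less FZD7. Of 9 members tested, 4 were called higher and 1 lower, against 11.8% of all genes, 5.95% higher and 5.88% lower. KREMEN1 had 15.4 and 16.8 CPM in WT, 15.5 and 13.9 CPM in TK+, and 28.6 to 33.5 CPM in all 6 libraries of the 3 loss clones. The log2 difference of 0.99 ± 0.08 (adjusted p = 8.42e-05) was a 1.99-fold rise over the group, with log2 changes of 1.05, 1.00 and 0.92 in clones 2, 5 and 6, and its adjusted p was at most 0.00343 in 22 alternatives. KREMEN1 was the only member that stayed called in all 22.

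ROR2 had 1.37 to 2.34 CPM in the 4 controls, 7.3 and 6.82 CPM in clone 2, 11.8 and 11.2 CPM in clone 5, and 2.85 and 3.26 CPM in clone 6. It rose by 1.94 ± 0.42 (adjusted p = 0.0141), with no overlap. With WT alone or TK+ alone as controls, an alternative chosen after seeing the data, the difference stayed at 1.93 and 1.95 and the adjusted p was 0.0851 and 0.115. ROR1, by contrast, had at most 7 counts in any A2780 library and was not tested.

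DKK3 had 13.6 and 11.9 CPM in WT and 4.94 and 6.28 CPM in TK+. It had 41.2 and 44.8 CPM in clone 2 and 47.7 and 46.4 CPM in clone 5, while clone 6, with 12.2 and 13.4 CPM, lay inside the WT range. DKK3 rose by 1.90 ± 0.48 over the group (adjusted p = 0.0262), and the call was lost without clone 2, without clone 5, and without WT replicate 2 or either TK+ library. DKK1 had 70.8 and 66.4 CPM in WT, 98.5 and 88.8 CPM in TK+, 104 and 96.3 CPM in clone 2, 291 and 248 CPM in clone 5, and 147 and 144 CPM in clone 6. It rose by 1.08 ± 0.31 (adjusted p = 0.0468, at most 0.303 over the alternatives) and was called in 8 of 22. Leaving out any single WT, TK+, clone 5 or clone 6 library ended the DKK1 call. FZD7 fell by 0.33 on the log2 scale (SE 0.09, adjusted p = 0.0336), from 71.7 to 89.4 CPM in the controls to 52.3 to 71.5 CPM in the loss libraries, and was called in 11 of 22. The FZD7 call was lost without either WT library, TK+ replicate 1, clone 2 replicate 1 or clone 5 replicate 2. With the libraries of each clone summed, KREMEN1 and ROR2 (adjusted p = 0.04) stayed called, and DKK3 (0.0704), DKK1 (0.09) and FZD7 (0.0911) did not. The calls of these 3 were also lost with WT alone and with TK+ alone as controls.

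The ligands depended on which A2780 controls were used. WNT5A had 3.57 and 3.45 CPM in WT but only 0.485 and 0.596 CPM in TK+, and 0.124 to 1.05 CPM in the 6 loss libraries. The log2 difference from all 4 controls was −2.01 ± 0.66 (adjusted p = 0.0709), from TK+ alone −0.12 (adjusted p = 0.955) and from WT alone −2.81 (adjusted p = 0.012). WNT5A was also called with DESeq2 (adjusted p = 0.0218) and without TK+ replicate 1 (adjusted p = 0.0433). WNT5B had 0.986 and 1.13 CPM in WT, 0.353 and 0.229 CPM in TK+, 4.41 and 3.66 CPM in clone 2, 3.52 and 2.83 CPM in clone 5, and 1.21 and 0.454 CPM in clone 6. Its difference was 1.99 ± 0.64 (adjusted p = 0.067), from TK+ alone 3.17 (adjusted p = 0.0817) and from WT alone 1.33 (adjusted p = 0.322). WNT5B was called with DESeq2 (adjusted p = 0.00845), without clone 6 (0.00889) and without clone 6 replicate 2 (0.0215).

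TK+ against WT, which shares its 4 libraries with the comparison above, had 5 of 9 members called, 1 higher and 4 lower, against 11.2% of all genes, 5.16% higher and 6.05% lower. WNT5A fell by 2.69 on the log2 scale (SE 0.33, adjusted p = 0.000137). DKK3 fell by 1.18 (SE 0.17, adjusted p = 0.000448) and FZD2 by 0.55 (SE 0.08, adjusted p = 0.000871), while DKK1 rose by 0.45 ± 0.09 (adjusted p = 0.00404). WNT5B was the fourth gene called lower, with 25 and 20 counts in WT and 8 and 5 in TK+. It passed the filter on low counts only through WT, and its call is a description. The WNT5B call was lost when WT replicate 1, WT replicate 2 or TK+ replicate 2 was left out and with DESeq2 (adjusted p = 0.155), and that of DKK1 ended without WT replicate 2 (adjusted p = 0.0788). All 4 libraries carry the extra 1q, so these members differed between 2 kinds of control. KREMEN1 and ROR2 overlapped between TK+ and WT.

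Markers of other cell types differed among the same A2780 libraries. The 5 fibroblast markers summed to 993 and 1004 CPM in WT, 401 and 313 CPM in TK+, 3002 and 2955 CPM in clone 2, 1994 and 1886 CPM in clone 5, and 534 and 515 CPM in clone 6. Most of the rise in this sum was COL1A2, at means of 374 CPM in WT, 11.1 CPM in TK+ and 1309 CPM in the loss libraries. The other 4 markers had lower means in the loss libraries than in WT: DCN 258 against 283 CPM, LUM 163 against 211 CPM, COL1A1 50.9 against 83.6 CPM and PDGFRB 34 against 47.4 CPM. All 4 had higher means in the loss libraries than in TK+, where they stood at 173, 135, 17.6 and 20.5 CPM. The 4 epithelial markers summed to 171 to 180 CPM in WT, 5.6 to 8.39 CPM in TK+ and 7.23 to 84.7 CPM in the loss libraries. Most of this sum was KRT8 (means of 136, 2.82 and 17.6 CPM in WT, TK+ and loss libraries) and KRT18 (38.5, 2.77 and 17 CPM). EPCAM (1.13, 1.13 and 0.68 CPM) and CDH1 (0.193, 0.271 and 0.163 CPM) did not follow the drop in TK+. Clone 6 had the lowest fibroblast sum and the lowest DKK3, ROR2 and WNT5B of the 3 clones, and its KREMEN1 mean was 29.1 CPM against 32 CPM in clone 2 and 30.7 CPM in clone 5. DKK1, WNT5A, FZD7 and RYK were instead lowest in clone 2, which had the highest fibroblast sum, and FZD2 was lowest in clone 5. The DKK1 means were 100, 270 and 145 CPM in clones 2, 5 and 6. The part of these markers in the changes was not tested.

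Of the pathway lists in the A2780 1q comparison, 0 of 3 other ligands, 1 of 10 receptors, 1 of 13 polarity genes, 1 of 8 antagonists and 1 of 8 beta-catenin targets outside 1q were called, where 11.8% of all genes were, with list medians between −0.058 and 0.15 against 0.012 over all genes. The called receptor was FZD6, at 13.5 ± 0.862 CPM (n = 4) in controls and 8.23 ± 2.46 CPM (n = 6) in loss libraries. LGR5 fell from 2.85 ± 0.409 CPM (n = 4) to 0.344 ± 0.237 CPM (n = 6), a log2 difference of −3.02 ± 0.46 (adjusted p = 0.00204). The controls held 53 to 68 reads of LGR5 and the loss libraries 1 to 13, of which 3 of 6 reached the filter. ANKRD6, a polarity gene, rose by 1.31 ± 0.31 (adjusted p = 0.0197), and NOTUM, a secreted enzyme that inactivates WNT ligands, by 1.76 ± 0.44 (adjusted p = 0.0271). WNT9A, on the lost arm, rose by 1.47 ± 0.38 (adjusted p = 0.0295). In TK+ against WT 2 of 10 receptors were called higher, and 1 of 5 ligands, 3 of 14 polarity genes, 3 of 7 antagonists and 2 of 8 beta-catenin targets lower, where 5.16% of all genes were higher and 6.05% lower. The receptor FZD1 rose from 14.1 ± 1.64 to 21.4 ± 1.09 CPM (adjusted p = 0.0071) and PTK7 from 139 ± 7.44 to 186 ± 11.2 CPM (adjusted p = 0.0048). PRICKLE1, a planar polarity gene, fell from 24.5 ± 0.2 to 0.658 ± 0.431 CPM (n = 2 each, adjusted p = 2.78e-08). The secreted antagonists SFRP1 and WIF1 fell from 18.4 ± 0.774 to 7.55 ± 0.0837 CPM (adjusted p = 2.86e-05) and from 23.3 ± 0.34 to 9.68 ± 1.54 CPM (adjusted p = 4.25e-05). The ligand WNT16 had 104 and 111 counts in WT and 3 and 7 in TK+. WNT16, the antagonist SOSTDC1 and the target TNFRSF19 passed the filter only through WT, so their calls are a description.

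**Figure D4:**
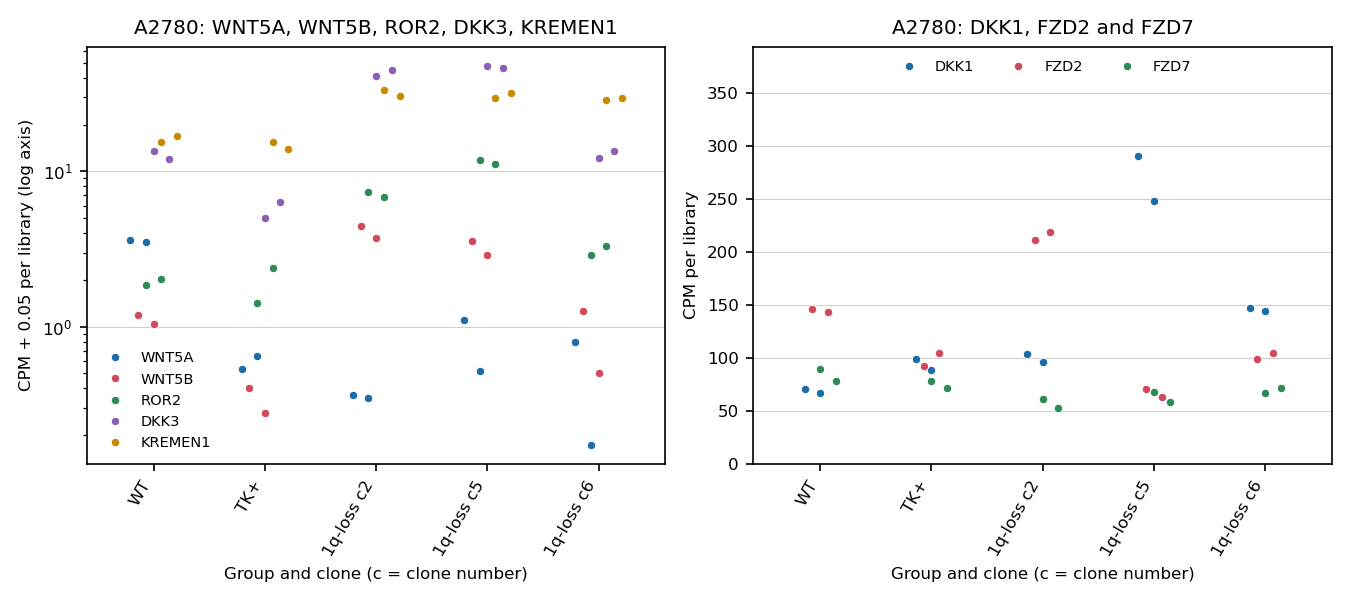
CPM of 8 members in each A2780 library, grouped as WT, TK+ and the 3 loss clones; points are single libraries, on a log axis with 0.05 added on the left and on a linear axis from 0 on the right. KREMEN1 is at 28.6 to 33.5 CPM in all loss libraries and at 13.9 to 16.8 CPM in the controls, while WNT5A separates WT, at 3.45 and 3.57 CPM, from TK+ and loss libraries alike.

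In MCF10A no member was called after 1q loss, with or without hRASV12, but DKK1 was higher in every clone of both backgrounds. Without hRASV12 DKK1 had 149 and 183 CPM in WT, and a lowest, median and highest value of 191, 252 and 354 CPM in the 8 loss libraries. With hRASV12 it had 188 and 189 CPM in WT and 250, 320 and 474 CPM in the 8 loss libraries. The groups did not overlap in either background. Each separation is from only 2 WT libraries, and the share of all genes that separated in this way was not counted. The log2 differences were 0.63 ± 0.18 (adjusted p = 0.121) and 0.84 ± 0.24 (adjusted p = 0.21) with edgeR's quasi-likelihood test, and DESeq2 gave adjusted p = 0.0132 and 0.0248. Without hRASV12 the 4 epithelial markers summed to 859 and 947 CPM in WT and 978 to 1583 CPM in the loss libraries, with KRT8 at means of 185 and 338 CPM. With hRASV12 they summed to 821 and 835 CPM in WT and 417 to 1510 CPM in the loss libraries. The part of these markers in the DKK1 values was not tested.

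Without hRASV12 0 of 9 members were called against 2.04% of all genes. An unadjusted p under 0.05 was found for 3 (WNT5B, DKK1 and KREMEN1) and for 11.8% of all genes, and DESeq2 called 1 (DKK1) and 4.19% of all genes. KREMEN1 had 30.9 and 32.6 CPM in WT and 35.2, 43 and 58 CPM (lowest, median and highest) in the loss libraries, a difference of 0.49 ± 0.16 (adjusted p = 0.219) with no overlap. This separation too is from only 2 WT libraries. WNT5B had 11.5 and 12.5 CPM in WT and 11.9, 21.2 and 28.7 CPM in the loss libraries, a difference of 0.70 ± 0.29 (adjusted p = 0.33). WNT5A, at 3.34 and 5.37 CPM in WT and 2.87, 4.24 and 6.92 CPM in the loss libraries, overlapped fully.

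With hRASV12 0 of 9 members were called against 0.214% of all genes. An unadjusted p under 0.05 was found for 2 (DKK1 and DKK3) and for 14.3% of all genes, and DESeq2 called these 2 and 3.79% of all genes. DKK3 passed the filter on low counts only through the loss libraries, so it is no support. WNT5A differed by clone. It had 4.38 and 5.28 CPM in WT, 2.86 and 1.97 CPM in clone 1, 21.9 and 20.5 CPM in clone 2, 6.61 and 7.04 CPM in clone 3, and 19.3 and 18.3 CPM in clone 4. The difference of the group was 1.36 ± 0.86 (adjusted p = 0.463). WNT5B was highest in clone 4, with 48.3 and 49.7 CPM, against 8.71 and 10.7 CPM in WT and 10 to 22 CPM in clones 1 to 3.

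DKK3 followed a similar order of clones. It had 2 and 3 counts in the hRASV12 WT libraries (0.0922 and 0.139 CPM) and 0.065 and 0.0596 CPM in clone 1, 6.16 and 3.69 CPM in clone 2, 0.806 and 0.772 CPM in clone 3, and 3.17 and 2.86 CPM in clone 4. The difference was 4.20 ± 1.72 (adjusted p = 0.316). KREMEN1 ran the other way in clone 2, with 26.1 and 24.6 CPM, below the WT values of 28.4 and 31.1 CPM, and stood at 47.4 and 47.3 CPM in clone 1. The 5 basal breast markers summed to 5355 and 5584 CPM in WT, 7472 and 7767 CPM in clone 1, 944 and 906 CPM in clone 2, 5404 and 5603 CPM in clone 3, and 4224 and 4277 CPM in clone 4. The 5 fibroblast markers summed to 25.7 and 27 CPM in WT, 14.3 to 14.9 CPM in clone 1, 267 and 286 CPM in clone 2, 35 and 40.3 CPM in clone 3, and 104 and 93.6 CPM in clone 4. Most of this sum was DCN, with means of 18.5 CPM in WT and 97.6 CPM in the loss libraries. COL1A1 had means of 7.56 and 9.03 CPM, and LUM, COL1A2 and PDGFRB were at or under 0.295 CPM in both. The part of these markers in the clone differences was not tested.

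Whether hRASV12 changed the response to 1q loss was tested as an interaction over all MCF10A libraries. The labels do not say whether clones of the same number in the 2 backgrounds share an origin, and the fit did not pair them. No member was called, against 0% of all 16492 genes. An unadjusted p under 0.05 was found for 0 members and 2.22% of all genes, and DESeq2 called 0 members and 0.00606% of all genes (1 gene). The interaction of DKK1 was 0.20 ± 0.30 (SE) on the log2 scale and that of WNT5A 1.31 ± 0.89. In hRASV12 WT against WT 0 of 8 members were called, against 1.62% of all genes, with 1 (RYK) and 14.2% of all genes at an unadjusted p under 0.05, and 0 members and 2.26% of all genes called by DESeq2. Of the pathway lists, the ligand WNT7B alone was called in MCF10A, rising without hRASV12 from 13.5 ± 0.485 CPM (n = 2) to 22.4 ± 2.3 CPM (n = 8), by 0.73 ± 0.13 (adjusted p = 0.00887).

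In HCT116, where WNT5A was at 0 in all 6 libraries and DKK3 had 1 count in 1 library and 0 in the others, no member was called after 8q loss of 8 tested, against 0.14% of all genes. An unadjusted p under 0.05 was found for 1 member (WNT5B) and 5.45% of all genes, and DESeq2 called 0 members and 0.747% of all genes. WNT5B had 5.18 and 3.04 CPM in WT, 2.36 and 1.62 CPM in clone 1, and 0.46 and 0.629 CPM in clone 2, a difference of −1.70 ± 0.67 (adjusted p = 0.776). ROR1 was low, with 1.68 and 1.95 CPM in WT and 0.164 to 0.985 CPM in the loss libraries, a difference of −1.64 ± 0.84 (adjusted p = 0.967). ROR2, the abundant ROR of this line, overlapped, with 36.3 and 44.3 CPM in WT and 26.2 to 44.2 CPM in the loss libraries. No gene of the pathway lists was called.

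**Figure D5:**
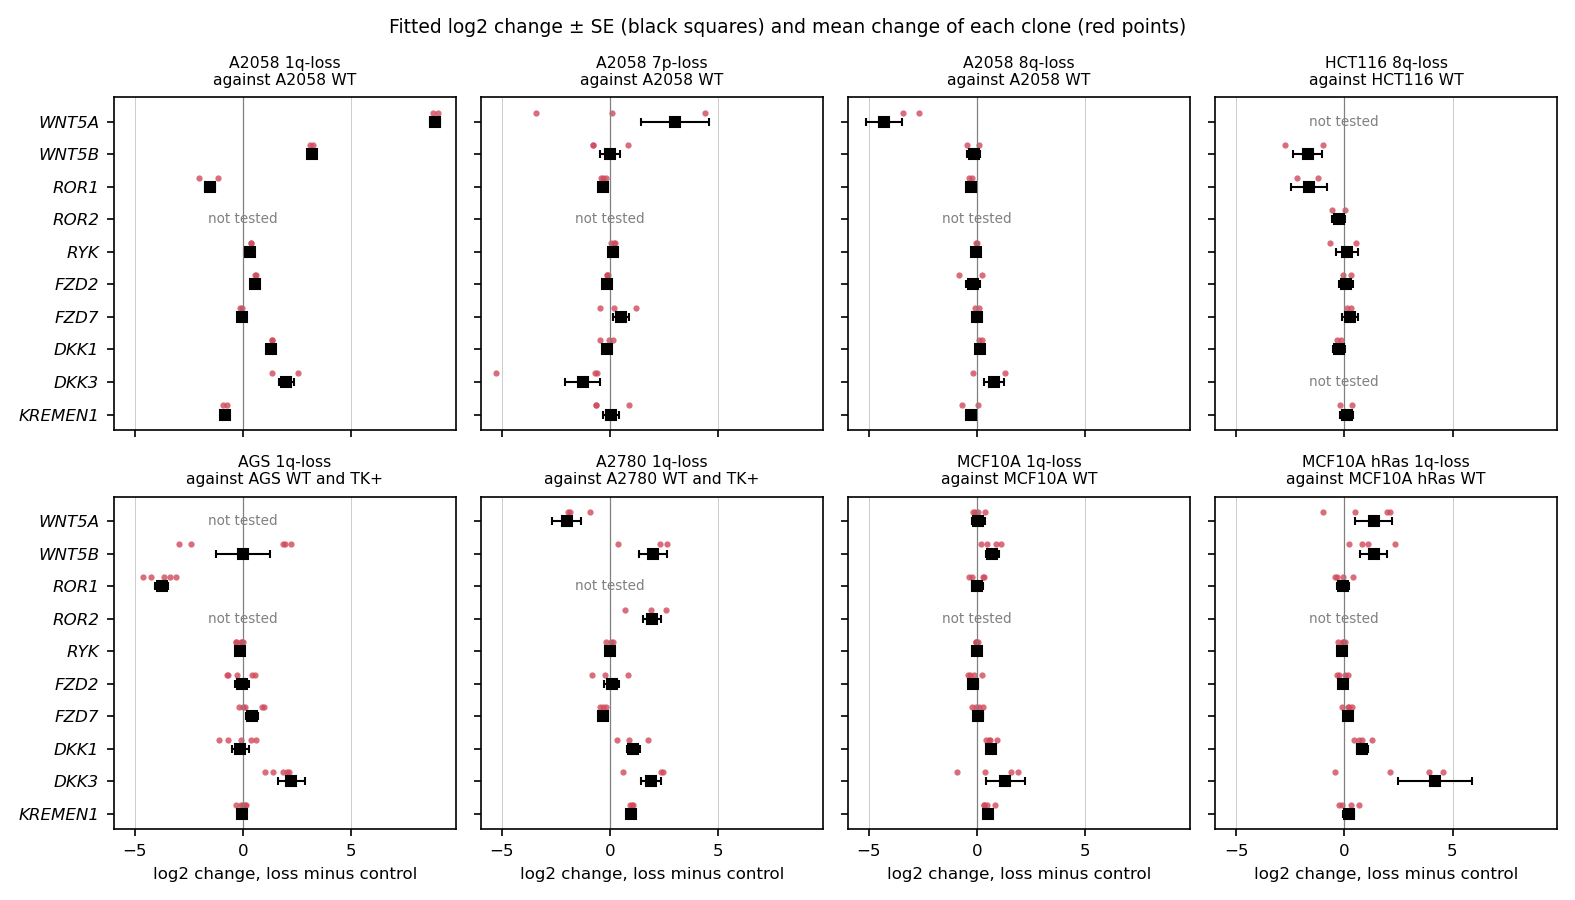
Fitted log2 difference of each member (black squares, loss minus control, with bars of 1 standard error) in each of the 8 comparisons of loss with control, above it in red the mean difference of each clone. The fitted difference of WNT5A reaches 8.87 in A2058 1q-loss and is negative in A2780 1q-loss at −2.01, and that of KREMEN1 is −0.82 and 0.99 in the same 2 comparisons. The fitted difference of RYK stays between −0.14 and 0.35, while its clone means in HCT116 are −0.66 and 0.56.

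The genes whose mean levels were most like those of WNT5A over the 13 groups counted with the GRCh38 annotation, among 12980 genes, were ITGA3 (Pearson r = 0.94), SERPINB7 (0.92) and TNIP3 (0.91) on the log2 scale. Of the members, WNT5B came closest, at 0.79. For ROR1 they were RAB29 (0.94), TRAPPC12 (0.93) and STX6 (0.92), of which RAB29 and STX6 lie on 1q. The groups share lines and clones, so these correlations are a description and carry no test.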

How the data were processed

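Messenger RNA of 62 libraries was measured as raw read counts per gene. Per the submitters' processing notes the authors used HISAT2 2.0.5, featureCounts 1.5.0-p3 and hg38, and deposited counts in 1 table per library. The A2780 tables carry GRCh37 coordinates and the others GRCh38 coordinates. Whether counting used the strand is not given in the sources used here. Libraries were grouped by their labels. Each comparison was fitted on its own groups in edgeR 4.0.16 (R 4.3.3, limma 3.58.1), with filterByExpr (minimum count 10, minimum total 15), TMM scaling, the quasi-likelihood F test and Benjamini-Hochberg adjustment over all genes tested, at 0.05. Scripts were tested on simulated data. CPM values use TMM over all libraries of a line; values at 0 are given with a floor of 3 counts, which covers counting error only.

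Alternatives were DESeq2 1.42.0, RLE size factors, a filter on mean CPM (at least 1), all genes unfiltered, TMM outside the targeted arm, clones summed, each clone or library left out, and the replicate number as a block. The A2780 fits with WT or TK+ alone were chosen after seeing the data. The members and the gene lists were chosen with earlier results of these data known. All members are named, and of each list and comparison at most the 3 called genes with the largest absolute log2 difference. For WNT5A and ROR1 the 3 protein-coding genes of highest Pearson correlation over group means are named, among those with a mean CPM of at least 1. Figures were drawn with matplotlib 3.10.9, and tables were made with pandas 2.3.3, scipy 1.17.1 and numpy 2.4.6 in Python 3.11.15. Genes were put on chromosome arms by their midpoints, with approximate centromere positions for each build taken from general knowledge of the genome and not from the deposited tables. Promoter windows come from RefSeq (GRCh38.p14), which held 6 of the 10 members.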

Additional observations from a re-analysis of the deposited data

Results flagged for a closer look

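Of 78 pairs of a member and a group of 4 to 10 libraries, 6 had 1 library far from the others, and chance alone gives about 1 in 20 groups. FZD2 was at 22.9 CPM in replicate 2 of HCT116 8q-loss clone 1, against 37 to 37.9 CPM in the other 3 libraries. ROR1 was at 22.9 CPM in replicate 1 of MCF10A hRASV12 1q-loss clone 4, against 10.4 to 14.9 CPM in the other libraries. RYK was at 52.4 CPM in A2058 WT replicate 4, against 71.2 to 73.2 CPM. WNT5B was the far gene in 3 A2058 groups: 25.1 CPM in replicate 1 of 1q-loss clone 1 against 30.7 to 31.4 CPM, 4.87 CPM in replicate 1 of 8q-loss clone 2 against 2.12 to 2.38 CPM, and 4.39 CPM in WT replicate 3 against 2.81 to 2.92 CPM.

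For 2 members the means of all clones lay above the control mean in 1 line after 1q loss and below it in another line. The log2 difference of WNT5A was 8.87 in A2058 and −2.01 in A2780, 10.88 apart. The A2780 difference of WNT5A was not called with edgeR (adjusted p = 0.0709) but was with DESeq2 (adjusted p = 0.0218), the libraries of its clones 5 and 6 overlapped the range of the controls, and against TK+ alone it was −0.12 (adjusted p = 0.955). That of KREMEN1 was 0.99 in A2780 and −0.82 in A2058, 1.81 apart. The differences between the lines were not tested, and WNT5A and the A2058 comparison were used to choose the genes.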

How the results depend on the processing

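Of 179 alternative counts of members called, 152 stayed within 1.5 times the main count. Of 316 alternative values of the called members 267 kept their direction and side of the threshold, 49 lost the call and 0 changed sign. These totals include the A2058 1q and AGS comparisons that chose the genes, with 17 values per called member in the first and 13 for ROR1 in AGS. Among those values only RYK lost the call, staying called in 15 of its 17. No steadiness of the results is read from the totals. The A2058 7p count went from 0 to 1 without loss clone 1. The 8q count of 1 went to 0 with a mean CPM of at least 1, with clones summed and with the replicate block, to 2 without loss clone 1, and ran from 0 to 1 with single libraries left out. The 8q fit without loss clone 1 rests on 2 libraries of 1 clone, so nothing is read from its count. DESeq2 called 2 members in AGS, 1 in MCF10A 1q-loss and 2 with hRASV12, against 1, 0 and 0. In A2780 1q-loss DESeq2 also called WNT5A and WNT5B, which the main fit did not. The unfiltered MCF10A fit called 1. In A2780 1q-loss the count of 5 went to 2 with clones summed, 3 without clone 2, 2 without clone 5, 1 with TK+ alone and 2 with WT alone as controls, and ran from 2 to 5 with single libraries left out. In A2780 TK+ against WT the count of 5 ran from 3 (without WT replicate 2) to 6 (without TK+ replicate 1) with single libraries left out. The causes were not tested.

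Replicate numbers did not pair the libraries: deviations of same-numbered libraries correlated between −0.18 and 0.49. With the replicate block 4 members were called in A2780 1q-loss (DKK1, at adjusted p = 0.0648, was not), 8 in A2058 1q-loss, 5 in A2780 TK+ against WT and 0 in the other comparisons. No paired analysis was possible in AGS because its labels carry clone numbers and no replicate numbers. Over all genes the counts of calls ranged from 6387 to 8182 (main 7638) in A2058 1q-loss, 1 to 898 (139) in 7p-loss, 36 to 783 (308) in 8q-loss, 0 to 133 (22) in HCT116, 97 to 2232 (1131) in AGS, 667 to 2574 (1780) in A2780 1q-loss, 1094 to 3278 (1669) in A2780 TK+, 16 to 567 (319) in MCF10A 1q-loss, 0 to 496 (34) with hRASV12 and 0 to 711 (237) in hRASV12 WT against WT. Depth limits WNT5A in AGS and HCT116, ROR1 in A2780 and ROR2 outside HCT116 and A2780, which had at most a few counts.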
